A study of Mus musculus with 6 samples.

Results

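Genes of calcium handling and excitation-contraction coupling were followed on 6 Affymetrix MoGene arrays, which measure transcripts with sets of probes along each gene, in mouse skeletal muscle. The list names 34 genes, chosen by symbol, and 33 of them were measured among the 19938 genes tested. Itpr1, an inositol trisphosphate receptor gene, was not analysed here. Where a gene had several probe sets, the brightest one stood for it. The labels put 3 arrays in a transgenic group (TG) and 3 in a wild-type group (WT), each array with its own subject, and the series title names SOCS-3, a suppressor of cytokine signalling. The sources used here do not give the muscle taken, the strain, age or sex of the mice, what the transgene carries or which promoter drives it. All values are log2 expression as deposited, and differences are TG minus WT on that scale.

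In skeletal muscle an action potential runs into the T-tubules, where the L-type calcium channel senses the voltage and opens the ryanodine receptor of the adjoining sarcoplasmic reticulum. Calcium stored there on calsequestrin flows into the cytosol and binds troponin, and the fibre contracts. SERCA pumps then return it to the reticulum under the control of small membrane proteins, and in fast fibres parvalbumin buffers it, while STIM and ORAI proteins refill the store from outside the cell.

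The calcium handling genes were measured at closely similar levels in TG and WT muscle, and none of the 33 passed the threshold. By limma's moderated test their adjusted p-values ran from 0.772 to 0.999, and 0.00502% of all genes tested, 1 gene that is not a member, had an adjusted p under 0.05. At an unadjusted p under 0.05 there were also 0 members, against 6.75% of all genes tested, and the smallest unadjusted p was 0.0840, for Pln. When the variance model followed intensity there were 2 such members, Jph1 and Cacna2d1, beside 1300 of all 19938 genes. There was 1 without TG array 3 (Cacng1), beside 1565 of all genes, and 1 without WT array 1 (Pln), beside 1510. Differences lay between -0.14 and 0.21, which is at most 1.16-fold higher and 1.10-fold lower in TG. Of the members 13 lay above 0 (39.4%, beside 43.8% of all genes) and 20 below, with a median of -0.014, beside a median of -0.016 over all genes. Sign counts given below for gene lists, on the values as deposited, are to be read beside that share of all genes. With the arrays set to a common median, which moved the members by a median of 0.040, 23 lay above 0 and 10 below, and the median was 0.026, beside 0.024 over all genes. The sign of a small difference here therefore depends on the scaling. The median absolute difference was 0.049 for the members and 0.074 for all genes. The 2 sets are unlike in level, since 30 of the 33 members were above the median level of all genes.

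The arrays were also precise enough to bound most of these differences. The 95% interval of the difference stayed within 0.25 on either side of 0, or 1.19-fold, for 22 of the 33 genes, and within 0.5 for all 33. The standard errors ran from 0.061 to 0.14. These intervals hold for 3 arrays a group under limma's shared variance. A p that misses the threshold does not show that 2 levels are equal.

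**Figure D1:**
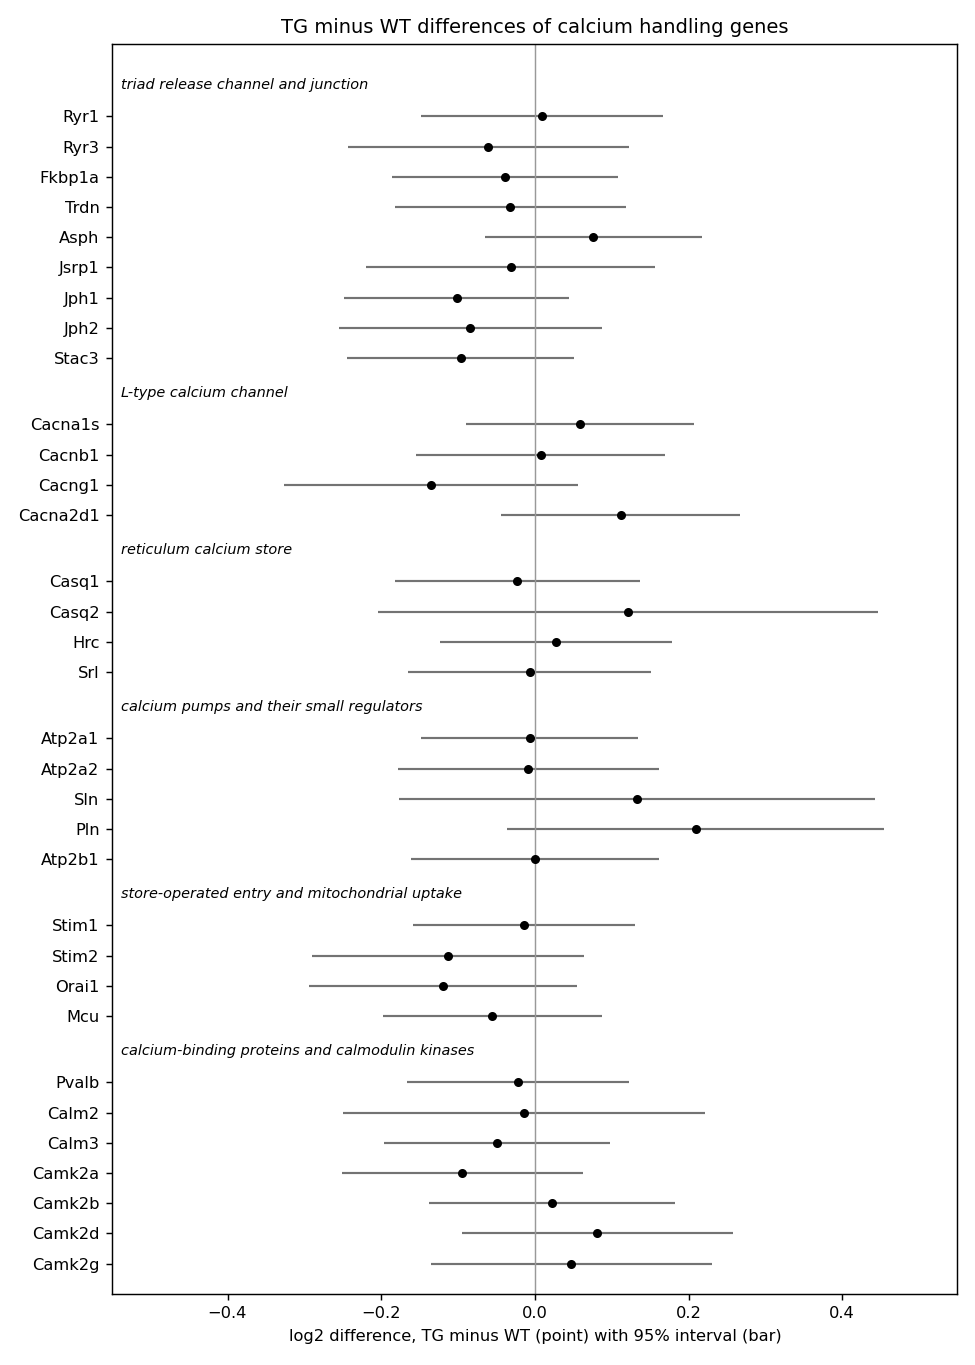
Log2 differences, TG minus WT, of the 33 measured genes (x axis; points) with their 95% intervals (bars), grouped by role down the page. Every interval includes 0, and the widest belong to Casq2, Sln and Pln.

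For 6 of the 33 genes, or 18.2%, the TG and WT arrays did not overlap, beside 12.3% of all genes tested. In Asph and Cacna2d1 each TG array was above each WT array (4.52% of all genes). In Jph1, Stac3, Mcu and Camk2a each TG array was below each WT array (7.76% of all genes). None of these 6 passed the test, and the gaps between groups were small.

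The junction between T-tubule and reticulum holds the ryanodine receptor complex, and 7 of its 9 measured genes lay below 0, with a median of -0.039, while 4 of 9 did so with a common array median (0.0011). Ryr1, the release channel of skeletal muscle, was at 12.85, 12.88 and 12.96 on the TG arrays and at 12.85, 12.95 and 12.86 on the WT arrays. Both sets of values covered almost the same span, and the difference was 0.01 (SE 0.07, 95% interval -0.15 to 0.17). Ryr3, a minor release channel of muscle, differed by -0.06 and the channel-binding immunophilin gene Fkbp1a by -0.04.

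The junctophilin genes Jph1 and Jph2 encode proteins that tether the reticulum to the T-tubule. Jph1 was at 12.44, 12.39 and 12.47 on the TG arrays, against 12.54, 12.50 and 12.55 on the WT arrays. The highest TG array was below the lowest WT array, with a difference of -0.10 (SE 0.06, 95% interval -0.25 to 0.04). A second Jph1 probe set gave -0.09, with TG values of 12.09, 12.03 and 12.17 and WT values of 12.22, 12.15 and 12.20, which overlapped. Jph2 was at 11.43, 11.29 and 11.45 on the TG arrays, against 11.51, 11.42 and 11.50 on the WT arrays. These values overlapped, with a difference of -0.08 (SE 0.07). Its second probe set gave -0.10, and there the TG arrays (11.28, 11.23 and 11.31) were all below the WT arrays (11.34, 11.37 and 11.40). The 4 junctophilin probe sets thus had differences of one sign and similar size, and neither gene passed the test. These probe sets share the same RNA samples, so they are not replicates. With a common array median the brightest probe sets differed by -0.06 for Jph1 and -0.04 for Jph2.

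Stac3, an adaptor that couples the L-type channel to release, was at 10.65, 10.65 and 10.66 on the TG arrays, against 10.69, 10.78 and 10.79 on the WT arrays. The TG arrays were nearly identical to each other and below every WT array, with a difference of -0.10 (SE 0.06, 95% interval -0.24 to 0.05). Asph, whose locus encodes junctin among other products, went the other way, at 8.60, 8.60 and 8.57 on the TG arrays, against 8.48, 8.53 and 8.53 on the WT arrays. Its difference was 0.08 (SE 0.06, 95% interval -0.07 to 0.22). Jsrp1, which encodes the junctional protein JP-45, differed by -0.03, and its highest and lowest values, 9.78 and 9.57, were both on TG arrays.

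Trdn encodes triadin, which holds calsequestrin near the release channel, and it was read by 19 probe sets. The brightest of them, probe set 10362420, was at 12.92, 12.83 and 12.82 on the TG arrays, against 12.87, 12.92 and 12.87 on the WT arrays, a difference of -0.03 (SE 0.06). Nothing separated the groups there. Across the 19 probe sets, however, TG array 1 stood apart: it held the highest value of the 6 arrays in 16 of them. It exceeded every other array by more than 0.5 in 6 probe sets and by more than 0.1 in 12.

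The gap was largest at probe set 10362454, with 6.27, 4.68 and 5.14 on the TG arrays, against 4.76, 5.20 and 5.27 on the WT arrays. TG array 1 was 0.999 above the next highest array there. Probe set 10362426 had 8.50, 7.18 and 7.24 on the TG arrays, against 7.87, 7.85 and 7.51 on the WT arrays, so that the TG arrays lay on both sides of the WT arrays. The TG arrays also lay on both sides of the WT arrays at probe set 10362424, with 10.64, 9.53 and 9.54 on the TG arrays, against 9.87, 9.98 and 9.80 on the WT arrays. Other probe sets of the gene were level, such as 10362432, at 12.57, 12.55 and 12.57 on the TG arrays, against 12.57, 12.58 and 12.59 on the WT arrays.

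The Trdn group difference therefore depended on this array. Over the 19 probe sets it ran from -0.10 to 0.29 with a median of 0.0085, and 12 lay above 0. Without TG array 1 it ran from -0.53 to -0.0044 with a median of -0.11, and all 19 lay below 0. That array was singled out for its high Trdn values, so leaving it out was bound to lower the difference. Across the probe sets no other array was left out, so these signs do not show lower Trdn in TG. These 19 probe sets share 6 RNA samples and 1 gene, so they are not replicates, and no test was made of them. As a median over the probe sets, TG array 1 was 0.34 above the median of the 6 arrays, while TG arrays 2 and 3 were 0.12 and 0.042 below it. Of the 24 genes with 10 or more probe sets, Trdn had the largest such deviation of any array, and the next was 0.23.

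**Figure D2:**
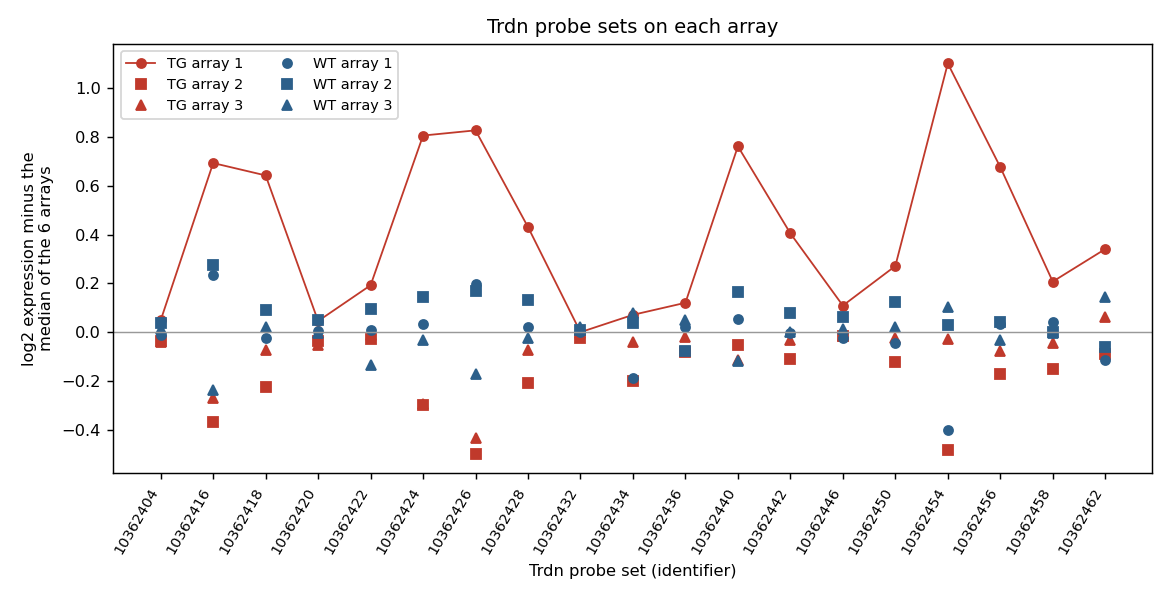
Each of the 19 Trdn probe sets (x axis) on the 6 arrays, as log2 expression minus the median of the 6 arrays (y axis), with TG in red, WT in blue and a line joining the values of TG array 1. TG array 1 lies up to 0.999 above the next array at some probe sets and level with the others at 10362432, while TG arrays 2 and 3 lie mostly below 0.

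The L-type channel genes had 3 of 4 differences above 0, with a median of 0.033, and 2 of 4 with quantile normalization. Cacna1s, the voltage-sensing pore subunit, was at 12.32, 12.29 and 12.35 on the TG arrays, against 12.26, 12.30 and 12.22 on the WT arrays. The groups overlapped and differed by 0.06 (SE 0.06, 95% interval -0.09 to 0.21). Cacna2d1, the extracellular alpha2-delta subunit, was at 12.04, 12.02 and 12.05 on the TG arrays, against 11.97, 11.97 and 11.84 on the WT arrays. Each TG array was above every WT array, with a difference of 0.11 (SE 0.07, 95% interval -0.04 to 0.27). Its second probe set gave 0.07, with 11.43, 11.35 and 11.41 on the TG arrays, against 11.35, 11.36 and 11.26 on the WT arrays, and overlapped.

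Cacng1, the gamma subunit of the muscle channel, had the lowest difference of the members, -0.14 (SE 0.08, 95% interval -0.33 to 0.06). Its values were 11.58, 11.69 and 11.84 on the TG arrays, against 11.84, 11.87 and 11.81 on the WT arrays. TG array 3 lay at the level of the WT arrays, and the other TG arrays were below. The difference was -0.07 without TG array 1 and -0.20 without TG array 3. Cacnb1, the beta subunit that carries the channel to the membrane, differed by 0.0076.

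Of the genes of the calcium store, Casq1 and Casq2 encode the fast-fibre calsequestrin and the cardiac and slow-fibre calsequestrin. Casq1 was at 13.91, 13.79 and 13.76 on the TG arrays, against 13.85, 13.85 and 13.84 on the WT arrays. The WT arrays were nearly identical and the TG arrays lay on both sides of them, with a difference of -0.02 (SE 0.07). Casq2 was at 8.96, 8.37 and 8.61 on the TG arrays, against 8.49, 8.55 and 8.54 on the WT arrays. Its range over the 6 arrays, 0.59, was the widest of all members, and TG arrays 1 and 2 held its highest and lowest values. The Casq2 difference was 0.12 (SE 0.14, 95% interval -0.20 to 0.45), and it was -0.04 without TG array 1 and 0.26 without TG array 2. The histidine-rich calcium-binding protein gene Hrc differed by 0.03, and Srl, which encodes sarcalumenin, by -0.0065.

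Casq2 was 1 of 8 members, or 24.2%, with their highest value on TG array 1, beside 13.5% of all genes, and the brightest probe set of Trdn was not among them. Nor was Trdn alone among genes with many probe sets, since the ribosomal protein gene Rps12 was highest on TG array 1 in 14 of 14. On TG array 1 the bone and osteoclast markers were highest too, with a summed log2 level of 10.40, against 9.77 and 9.38 on the other TG arrays and 9.24 to 9.56 on the WT arrays. Fibroblast markers were highest there as well, with 13.83, against 13.73 and 13.56 on the other TG arrays and 13.52 to 13.66 on the WT arrays. Their part in the Casq2 and Trdn values was not tested.

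SERCA pumps were level. Atp2a1, the fast-fibre SERCA1 pump, was at 14.54, 14.48 and 14.51 on the TG arrays, against 14.53, 14.50 and 14.52 on the WT arrays. Its values spanned 0.056 over the 6 arrays, the narrowest of all members, and the difference was -0.0069 (SE 0.06, 95% interval -0.15 to 0.13). Atp2a2, the slow-fibre and cardiac SERCA2 pump, was at 9.0, 8.95 and 8.98 on the TG arrays, against 9.0, 8.88 and 9.07 on the WT arrays. Both groups covered the same levels, with a difference of -0.0084 (SE 0.07, 95% interval -0.18 to 0.16). Atp2b1, a calcium pump of the plasma membrane, differed by 0.00069 (95% interval -0.16 to 0.16).

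Pln and Sln encode phospholamban and sarcolipin, small membrane proteins that restrain SERCA. Pln had the largest difference of the members, with 6.41, 6.31 and 6.54 on the TG arrays, against 6.40, 6.16 and 6.07 on the WT arrays. The groups overlapped through WT array 1, and the difference was 0.21 (SE 0.11, 95% interval -0.04 to 0.45, limma adjusted p = 0.772). It ranged from 0.14 without WT array 3 to 0.31 without WT array 1. Sln was at 5.21, 5.67 and 5.50 on the TG arrays, against 5.34, 5.47 and 5.16 on the WT arrays. Its values overlapped widely, with a difference of 0.13 (SE 0.13, 95% interval -0.18 to 0.44). Pln, Sln and Ryr3 were the 3 members at or below the median level of all genes, and signal over background could not be assessed.

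The upstream sequences of Casq1, Casq2 and Pln are shown because Casq1 and Casq2 are paralogs that differed in their spread between arrays and Pln had the largest difference. They are 250 bases up to the annotated start from RefSeq on GRCm38.p6, 5′ to 3′ on the gene's strand, at chr1:172219896-172220145 (minus strand), chr3:102086165-102086414 (plus) and chr10:53337436-53337685 (plus). Capitals mark E-boxes (CANNTG, the site of myogenic factors such as MyoD) and matches to the MEF2 consensus.
Casq1: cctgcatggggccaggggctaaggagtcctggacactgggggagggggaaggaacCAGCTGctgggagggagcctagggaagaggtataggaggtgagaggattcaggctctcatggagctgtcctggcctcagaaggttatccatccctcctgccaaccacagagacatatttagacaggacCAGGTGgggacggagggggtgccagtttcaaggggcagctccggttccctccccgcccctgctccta
Casq2: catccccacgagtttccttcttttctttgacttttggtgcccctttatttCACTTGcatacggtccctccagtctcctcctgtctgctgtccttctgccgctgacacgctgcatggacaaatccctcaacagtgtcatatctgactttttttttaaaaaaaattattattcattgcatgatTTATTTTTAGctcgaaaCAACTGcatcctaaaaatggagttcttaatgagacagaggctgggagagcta
Pln: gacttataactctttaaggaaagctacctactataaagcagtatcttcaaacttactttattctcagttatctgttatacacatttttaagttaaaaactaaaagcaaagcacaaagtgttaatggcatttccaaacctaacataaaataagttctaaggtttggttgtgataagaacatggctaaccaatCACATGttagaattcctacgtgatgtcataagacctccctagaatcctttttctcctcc
Casq1 held 2 E-boxes, Casq2 held 2 E-boxes and 1 MEF2 match, and Pln held 1 E-box. Promoters were found for 20 of the members, 24 in all. Both strands were searched, E-boxes read the same on both, and overlapping matches were counted. An E-box was present in 14 of the 24 (58.3%), beside 66.2% of the 32851 promoters in the table. A MEF2 match was present in 2 of the 24 (8.33%), those of Casq2 and Pvalb, beside 2.92% of all promoters. None of the 24 held a CArG box, the site of serum response factor, beside 1.47% of all promoters. A match describes the letters in this window and is not a site shown to be bound.

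Genes of calcium entry and mitochondrial uptake lay below 0 in 4 of 4 cases, with a median of -0.084, and in 3 of 4 with a common array median (-0.045). Orai1, the pore of the store-operated channel, was at 7.92, 7.98 and 7.81 on the TG arrays, against 8.03, 8.08 and 7.95 on the WT arrays. The groups overlapped by 1 array on each side, with a difference of -0.12 (SE 0.07, 95% interval -0.29 to 0.06). Stim2, a calcium sensor of the reticulum that regulates basal calcium, was at 9.33, 9.13 and 9.25 on the TG arrays, against 9.32, 9.33 and 9.40 on the WT arrays. It differed by -0.11 (SE 0.08), with TG array 1 within the WT range.

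Stim1, the main sensor that opens ORAI1 when the store empties, was at 10.39, 10.35 and 10.35 on the TG arrays, against 10.38, 10.41 and 10.34 on the WT arrays. The groups were level, with a difference of -0.01 (95% interval -0.16 to 0.13). Mcu, the pore of the mitochondrial calcium uniporter, was at 8.23, 8.29 and 8.26 on the TG arrays, against 8.32, 8.34 and 8.29 on the WT arrays. No TG array reached the lowest WT array, and the difference was -0.06 (SE 0.06, 95% interval -0.20 to 0.09).

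Among calcium-binding proteins, Pvalb, the parvalbumin of fast fibres, was at 14.25, 14.20 and 14.27 on the TG arrays, against 14.29, 14.25 and 14.24 on the WT arrays. It overlapped between groups and differed by -0.02 (SE 0.06, 95% interval -0.17 to 0.12). Calm2 and Calm3 encode the same calmodulin protein. Calm3 differed by -0.05 (SE 0.06) and Calm2 by -0.01 (SE 0.10). WT array 1 held the highest Calm2 value, 11.72, where the other arrays were between 11.37 and 11.50. A second Calm2 probe set gave -0.19, with 11.36, 11.38 and 11.30 on the TG arrays, against 11.67, 11.37 and 11.57 on the WT arrays, so the 2 probe sets differed in size.

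The calmodulin-dependent kinase II genes did not share a sign. Camk2a, the alpha isoform, was at 8.01, 7.98 and 7.95 on the TG arrays, against 8.04, 8.15 and 8.03 on the WT arrays. The TG arrays were all below the WT arrays, with a difference of -0.09 (SE 0.07, 95% interval -0.25 to 0.06). Camk2b, the beta isoform, differed by 0.02 (SE 0.07), Camk2d, the delta isoform, by 0.08 (SE 0.08) and Camk2g, the gamma isoform, by 0.05 (SE 0.08).

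**Figure D3:**
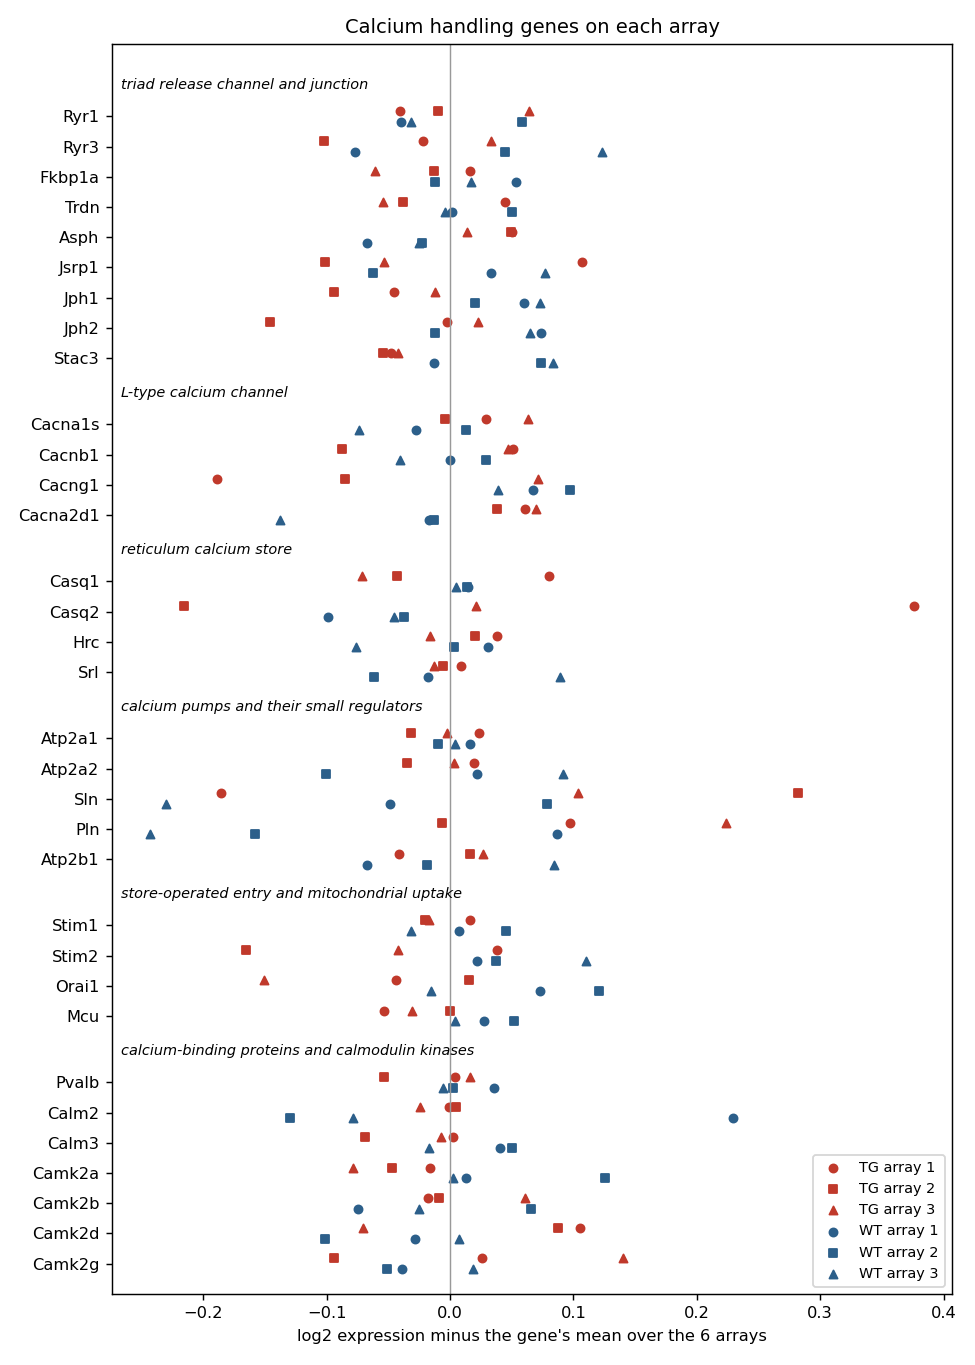
Log2 expression of each of the 33 genes on each array, as the deviation from the gene's mean over the 6 arrays (x axis), with TG arrays in red above WT arrays in blue for each gene. TG and WT points intermingle for most genes, and the widest spread is that of Casq2, whose highest value is on TG array 1.

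Other genes of the pathway were taken from a separate list. Of 42 measured calcium handling genes outside the list, 0 passed the threshold in either direction, 17 lay above 0 and 25 below, and the median was -0.016. With a common array median 25 lay above 0 and 17 below. At an unadjusted p under 0.05 there was 1, beside 6.75% of all genes. This was Atp2b3, a plasma membrane calcium pump, at 7.79, 7.68 and 7.66 on the TG arrays, against 7.504, 7.44 and 7.32 on the WT arrays. Its TG arrays were all above its WT arrays, by 0.29 (SE 0.08, limma adjusted p = 0.660). Dhrs7c, a dehydrogenase of the sarcoplasmic reticulum, differed by 0.15 (SE 0.08), Hax1 by 0.10 and the uniporter regulator gene Mcur1 by 0.10, and none of these passed. Over the 42 genes the TG arrays were all above the WT arrays in 4 and all below in 4, beside 4.52% and 7.76% of all genes.

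Genes of membrane excitability had 0 of 10 past the threshold in either direction, with 2 above 0, 8 below and a median of -0.02, or 6 above and 4 below with a common array median. Without TG array 2, and likewise without WT array 3, 5 lay above 0 and 5 below. At an unadjusted p under 0.05 there was 1, beside 6.75% of all genes. Cav3, the muscle caveolin, was at 8.87, 8.81 and 8.76 on the TG arrays, against 8.95, 8.96 and 9.03 on the WT arrays. This was the 1 gene under that p, with a difference of -0.17 (SE 0.07, limma adjusted p = 0.738). The inward rectifier potassium channel gene Kcnj2 differed by -0.13 (SE 0.06), Fxyd1, a regulator of the sodium pump, by -0.10 and the potassium channel gene Kcna7 by 0.11. In 3 of the 10, Cav3, Kcnj2 and Fxyd1, the TG arrays were all below the WT arrays, beside 7.76% of all genes. In 1, Kcna7, they were all above, beside 4.52% of all genes.

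Fibre type genes were set beside these values, since several members come in a fast and a slow form. In bulk muscle, fewer fibres of a type and less RNA per fibre cannot be told apart. Slow fibre genes had 8 of 9 differences below 0 (7 of 9 with a common array median) and a median of -0.15. Of the 9, 0 passed the threshold by limma and 2 had an unadjusted p under 0.05, beside 6.75% of all genes. The summed log2 level of the slow fibre genes was 11.53 to 11.64 on the TG arrays and 11.48 to 12.01 on the WT arrays. Myoz2, a Z-disc calsarcin of slow fibres, differed by -0.52 (SE 0.19) with its highest value, 10.23, on WT array 3. The slow troponin T gene Tnnt1 differed by -0.21 (SE 0.08), the myosin gene Myh7b by -0.20 and the slow light chain gene Myl2 by -0.47 (SE 0.26).

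The slow and cardiac forms among the members, Casq2 at 0.12, Atp2a2 at -0.0084 and Pln at 0.21, lay on both sides of 0, and Casq2 was at -0.04 without TG array 1. Fast fibre genes had 9 of 12 differences below 0 (3 of 12 with a common array median) and a median of -0.025, with a summed log2 level of 17.28 to 17.32 on the TG arrays and 17.32 to 17.33 on the WT arrays. Mylk2, the skeletal myosin light chain kinase that calmodulin activates, differed by -0.22 (SE 0.08), while Myh1 differed by 0.06 and Tnni2 by -0.05. Myh2 differed by -0.30 (SE 0.14), with 12.52 on WT array 3, against 12.01 and 11.97 on the other WT arrays. None of these fast fibre genes passed the threshold, and Mylk2 alone of the 12 had an unadjusted p under 0.05, beside 6.75% of all genes.

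Markers of the labelled tissue were present at high and similar levels, with the desmin gene Des at a mean of 12.85 in TG and 12.89 in WT, and Myoz3 at 9.98 in TG and 10.06 in WT. All 8 skeletal muscle fibre markers lay below 0, while 7 of 8 lay above 0 with a common array median. No cell type list had a member past the threshold by limma. In each list 0 to 2 members had an unadjusted p under 0.05, beside 6.75% of all genes. Cardiac muscle markers had a summed log2 level of 9.57 to 9.67 in TG and 9.71 to 9.79 in WT, with 6 of 8 below 0, Nppb at -0.26 and Tnni3 at -0.32. Smooth muscle markers were at 13.32 to 13.33 in TG and 13.30 to 13.42 in WT, with Myh11 at 0.16 and Smtn at -0.05. This list shares Des with the skeletal muscle fibre list. Des was its brightest gene, at 12.84 to 12.94 over the 6 arrays, followed by Acta2 at 10.37 to 10.68, so the sum is mainly that of Des. Of the smooth muscle markers 5 of 8 lay below 0, or 2 of 8 with a common array median. Nerve markers were at 9.92 to 10.04 in TG and 9.995 to 10.05 in WT, with Snap25 at -0.24 and Nefm at 0.18. Of these 7 of 9 lay below 0, with a median of -0.11, or 6 of 9 with a common array median. All 8 macrophage, 7 fibroblast and 7 adipocyte markers measured lay above 0, with Itgam at 0.57, Tyrobp at 0.26, Pdgfra at 0.16, Col3a1 at 0.28, Adipoq at 0.64 and Plin1 at 0.21. The macrophage count rested on WT array 3, without which 3 of 8 lay above 0 and 5 below, with a median of -0.0012, beside 0.11 over all arrays. Without each array in turn 5 to 7 of the 7 fibroblast markers and all 7 adipocyte markers lay above 0. Endothelial markers had 6 of 8 below 0, or 4 of 8 with a common array median or without WT array 1, with Egfl7 at -0.25 and Pecam1 at 0.14. Several of the cell type markers named were dim, and their signal over background could not be assessed. Nppb (5.18 to 5.63), Snap25 (4.50 to 5.04), Nefm (3.62 to 4.04) and Itgam (4.88 to 5.76) stayed below every array median (5.98 to 6.04). Tnni3 (5.53 to 6.15) and Adipoq (5.25 to 6.04) were near these medians or below. The brightest gene weighs most in a summed level, Myl4 for cardiac muscle (8.26 to 8.54) and Pmp22 for nerve (9.35 to 9.47).

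Hepatocyte transcripts varied most between arrays, with a summed log2 level of 9.32 to 12.01 in TG and 10.76 to 11.60 in WT, and TG array 3 the lowest and TG array 2 the highest, with Apoa1 at -0.78 (SE 0.46) and Ttr at -0.70 (SE 0.51). All 10 hepatocyte transcripts lay below 0, or 7 of 10 without TG array 3. Bone markers had 6 of 7 above 0, with Ctsk at 0.57 and Acp5 at 0.69. Their part in the member values was not tested. Socs3 averaged 7.15 ± 0.09 on the TG arrays and 7.41 ± 0.03 on the WT arrays (SD over 3 arrays; adjusted p = 0.660 by limma). Since the sources do not say whether its probe set reads the transgene, it does not check the labels.

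**Figure D4:**
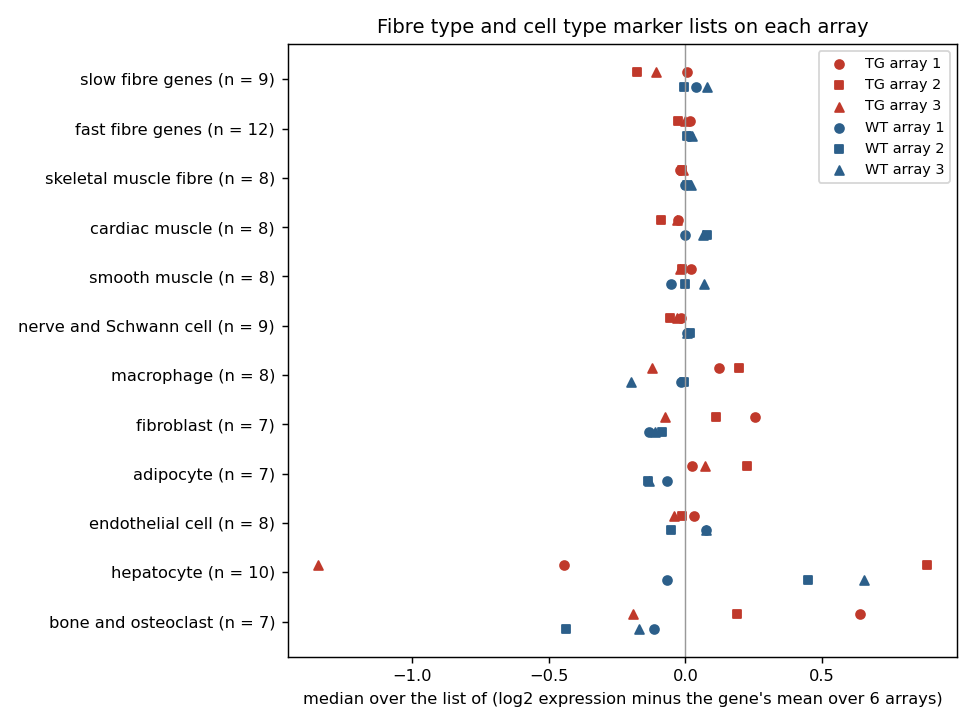
Median over each marker list of the deviation from each gene's mean over the 6 arrays (x axis, log2), with TG arrays in red above WT arrays in blue and the number of genes measured beside each list. Hepatocyte and bone transcripts spread widest between arrays, and muscle fibre lists stay near 0.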

How the data were processed

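Per the labels' protocols, frozen tissue was homogenised in Trizol and its total RNA was cleaned on RNeasy columns and biotin-labelled. The authors deposited log2 expression values for 35557 probe sets on 6 arrays. The sources used here do not give their background correction, summarization or normalization. The scale was taken from the range of the values, and signal over background could not be assessed. Over all probe sets the array medians were 5.98, 6.00 and 6.01 in TG and 6.00, 6.01 and 6.04 in WT, and the values were used as deposited. The common array median setting used medians over the 19938 genes tested instead. It moved the member differences by a median of 0.040. The number of arrays limits the precision.

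Probe sets with 1 symbol in the platform annotation (21789) were used. Those with several symbols (1621) or without one (12147) were left out. Groups were taken from the labels, and replicate numbers follow the order of deposit and pair no mice. Groups were compared over 19938 genes by a two-sided moderated test in limma 3.58.1 (lmFit, then eBayes; R 4.3.3), with Benjamini-Hochberg adjustment and a threshold of 0.05. Gene lists are described by counts and medians and were not tested. A list's summed log2 level is the log2 of the sum of its genes' unlogged values. All members were named, with 4 genes of each other pathway or fibre list and 2 of each cell list, by smallest unadjusted p. Members and lists were chosen with earlier results of these data known. Alternatives were an intensity trend, genes above the median level, averaging over probe sets of a gene, quantile normalization, array medians set equal and each array left out. Of these steps the limma fit alone was tested on simulated data. Figures used matplotlib 3.10.9.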

Additional observations from a re-analysis of the deposited data

How the results depend on the processing

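No paired analysis was possible because the labels carry no replicate numbers. No member passed the threshold under any of the 11 alternatives, with adjusted p of at least 0.614. Over all genes tested, 1 passed; the count was 7 with an intensity trend, 2 when only genes above the median level were tested, 0 with a common array median and 0 without each array in turn. At an unadjusted p under 0.05 there were 2 members with an intensity trend (Jph1 and Cacna2d1), beside 1300 of all 19938 genes. Without each array in turn there were 0 to 1, beside 1040 to 1565 of all genes. Of 360 recomputed member differences 320 kept their sign, and 15 members kept it throughout. Every difference that turned was at most 0.12 in size over all arrays. With a common array median the sign turned for Fkbp1a (0.0011), Trdn (0.0081), Jsrp1 (0.0082), Casq1 (0.017), Srl (0.033), Atp2a1 (0.033), Atp2a2 (0.032), Stim1 (0.026), Pvalb (0.018), Calm2 (0.026). With quantile normalization the sign turned for Ryr3 (0.0059), Cacnb1 (-0.0011), Casq1 (0.0067), Atp2a1 (0.0062), Atp2b1 (-0.011). Averaging over probe sets turned the sign for Trdn (0.035). Without each array in turn it turned at least once for Ryr1 (-0.021 to 0.040), Jsrp1 (-0.093 to 0.011), Cacnb1 (-0.016 to 0.053), Casq1 (-0.069 to 0.0073), Casq2 (-0.037 to 0.26), Hrc (-0.0031 to 0.051), Srl (-0.039 to 0.037), Atp2a1 (-0.020 to 0.0074), Atp2a2 (-0.061 to 0.035), Atp2b1 (-0.033 to 0.043), Stim1 (-0.033 to 0.0052), Calm2 (-0.082 to 0.097), Camk2b (-0.0091 to 0.061), Camk2g (-0.010 to 0.11). With a common array median list medians moved beyond their spread for triad release channel and junction (0.0011), reticulum calcium store (0.051), calcium pumps and their small regulators (0.041), store-operated entry IP3 receptor and mitochondrial uptake (-0.045), calcium-binding proteins and calmodulin kinases (0.026), other calcium handling genes (0.024), sarcolemmal and T-tubule excitability (0.020), fast fibre genes (0.015), skeletal muscle fibre (0.029), cardiac muscle (-0.069), nerve and Schwann cell (-0.075). With quantile normalization list medians moved beyond their spread for nerve and Schwann cell (-0.045). Among genes above the median level list medians moved beyond their spread for nerve and Schwann cell (-0.064). Without each array in turn they did so for reticulum calcium store (-0.025 to 0.025), calcium pumps and their small regulators (-0.0083 to 0.043), other calcium handling genes (-0.026 to 0.020), sarcolemmal and T-tubule excitability (-0.057 to 0.0062), nerve and Schwann cell (-0.11 to -0.027), bone and osteoclast (0.15 to 0.76). Here a list's spread is the SD between arrays, pooled over groups, of its median deviation. Setting a common array median added the same amount, 0.040, to every gene's difference. Those turns therefore reflect how near 0 a difference lay, and those moves how small a list's spread was. For the other alternatives the cause was not tested.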
